A study of Equus caballus with 68 samples.

Results

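The 10 genes described here encode proteins that break down heme or take up, store, mobilise and export iron: HMOX1, HMOX2, BLVRA, BLVRB, SLC40A1, SLC11A1, TFRC, FTH1, FTL and NCOA4. They were chosen by name from the gene symbols paired with Ensembl identifiers in the expression table. All 10 were found, each as a single entry, among 30371 entries, and all 10 were among the 14570 genes that passed the filter on low values.

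Macrophages that engulf aged or damaged red cells open the heme ring with heme oxygenase and pass the products to biliverdin reductase. The iron set free is stored in ferritin, returned from ferritin to the cell when needed, or exported through ferroportin, and iron carried by transferrin enters through the transferrin receptor. Erythroid precursors in the bone marrow use the same receptor to take up the iron for hemoglobin.

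Bone marrow mononuclear cells (BMNC) came from the sternum of 8 adult Thoroughbred horses aged 3 to 9 years, 2 of them female and 6 castrated males. Uncultured cells formed the 0 hour group (8 libraries). The rest were cultured, horse by horse and without other medium, in cell-free autologous synovial fluid, either normal fluid from healthy middle carpal joints (SF) or inflamed fluid from radiocarpal joints injected with lipopolysaccharide (ISF). Cells were harvested after 48 hours (7 libraries per fluid), 96 hours (8 per fluid), 6 days (8 per fluid) and 10 days (7 per fluid), giving 68 libraries, with 1 library per horse, fluid and time. The fluids thus differed in joint of origin as well as in inflammation, and the 2 cannot be told apart. Each library holds mixed cells, those of a well or uncultured BMNC, so that fewer cells of a type and less RNA per cell cannot be told apart.

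Levels are GeTMM values, read counts per gene scaled by gene length and by library. Libraries held 15.7 to 36.0 M reads on genes (median 22.3 M). The SF library of the horse Moon at 6 days stood apart: its GeTMM values summed to 2.32 M, against 0.818 to 1.46 M in the others. At 96 hours the ISF libraries labelled Dealings and Dreamer each resembled the other horse's remaining libraries, whereas 66 of the 68 libraries resembled their own horse most. The main test below compared group means with no term for horse, and both libraries are in the same group. An exchange of their labels would thus not change its results, and leaving both out only shows the results on fewer libraries. It would change the within-horse ratios at 96 hours and the fit with horse as a block. Of 8 erythroid marker genes, 7 were in the table (HBB was not analysed here), and all 7 fell from 0 to 48 hours in both fluids. Their summed GeTMM ranged from 96.4 to 1857 at 0 hours, from 1.03 to 12.7 in ISF and 1.00 to 38.0 in SF at 48 hours, and from 0.819 to 2.41 in ISF and 0.853 to 2.88 in SF at 10 days. SLC4A1, the red cell anion exchanger, was at 0 in 7 of 7 libraries of each fluid at 10 days. All 6 macrophage markers rose from 0 to 48 hours in both fluids. Their summed GeTMM was 100.1 to 162 at 0 hours, and 14264 to 27198 in ISF and 7036 to 13076 in SF at 48 hours. SPP1 then had a median of 14540 in ISF and 1441 in SF, and GPNMB 4270 in ISF and 4951 in SF. Of the 6, 1 differed between the fluids at 48 hours by the test described below. The part of the shift in cell makeup from 0 hours onward in the results on time was not tested.

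Culture was accompanied by higher expression of most of the 10 genes within the first 48 hours. In ISF, 9 of the 10 were called from 0 to 48 hours (7 higher, 2 lower), beside 52.7% of all genes tested. In SF, 6 were called over the same interval, all higher, beside 45.4% of all genes. The median log2 change of the 10 was 1.07 in ISF and 0.84 in SF, against -0.03 and -0.01 over all genes tested. A gene was called where limma's test, adjusted over all genes tested, gave p under 0.05. After 48 hours few changes between neighbouring times were called. From 48 to 96 hours 1 of 10 was called in ISF (19.0% of all genes) and 2 in SF (27.3%), and from 96 hours to 6 days none was called in ISF (6.38%) or in SF (2.05%). For this last interval 2 members in ISF and 0 in SF had an unadjusted limma p under 0.05, and limma voom on recovered reads called 0 in both fluids. From 6 to 10 days 1 was called in ISF (10.5%) and 1 in SF (4.78%), both lower. Over the whole culture, from 0 hours to 10 days, 8 members were called in each fluid, 7 higher and 1 lower, where 74.5% of all genes were called in ISF and 69.6% in SF. Both net changes were measured against the same 8 libraries at 0 hours.

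**Figure D1:**
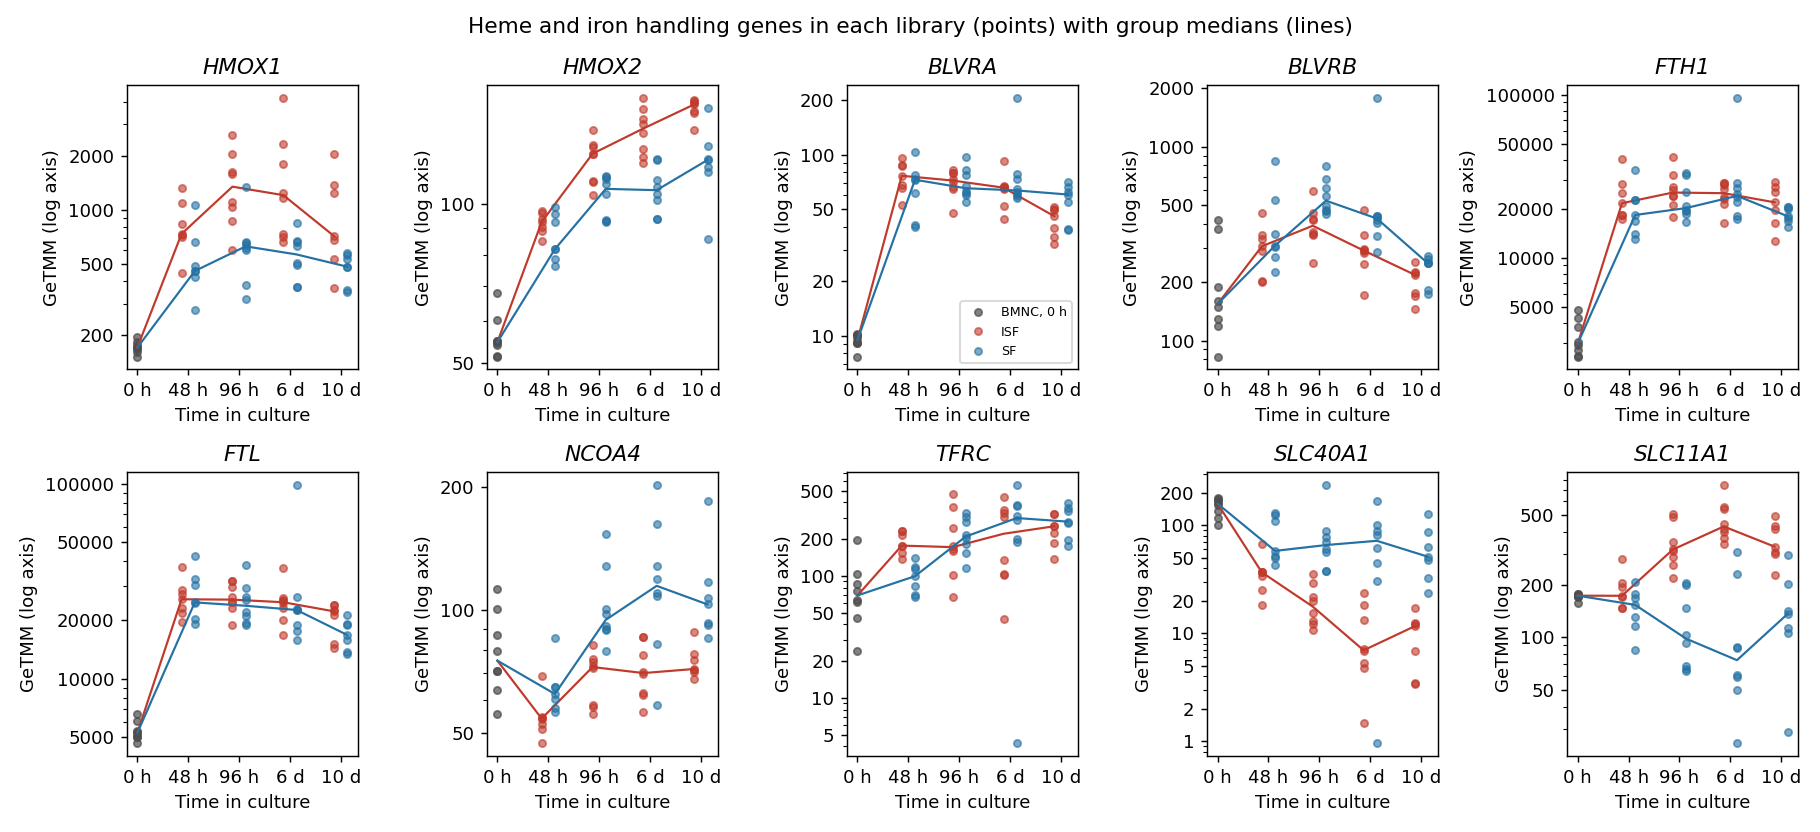
GeTMM (log axis) of the 10 genes in each of the 68 libraries by time in culture, with uncultured BMNC in grey, ISF in red and SF in blue; lines join group medians. HMOX1, HMOX2, BLVRA, FTH1 and FTL lie above all uncultured libraries at every culture time, SLC40A1 falls in ISF, and Moon's 6 day SF library lies far from its group in FTH1, FTL, BLVRA, BLVRB, TFRC and SLC40A1.

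HMOX1 (ENSECAG00000001129), the inducible heme oxygenase, rose in both fluids and reached its highest levels in ISF. Its GeTMM at 0 hours lay in a narrow band from 152 to 195, with a median of 171. In ISF the lowest, median and highest values were 443, 734 and 1331 (48 hours), 598, 1346 and 2599 (96 hours), 664, 1207 and 4203 (6 days), and 365, 713 and 2046 (10 days). In SF they were 276, 456 and 1067 (48 hours), 319, 626 and 1346 (96 hours), 370, 564 and 844 (6 days), and 349, 482 and 571 (10 days). Every cultured library was above every uncultured one. The log2 change from 0 to 48 hours was 2.20 ± 0.31 (SE) in ISF (adjusted p = 1.58e-08) and 1.55 ± 0.31 in SF (adjusted p = 3.46e-05). From 0 hours to 10 days it was 2.31 ± 0.31 in ISF (adjusted p = 1.53e-09) and 1.44 ± 0.31 in SF (adjusted p = 4.83e-05). Ordered by median, the 4 ISF groups came first (96 hours, 6 days, 48 hours, 10 days), then the 4 SF groups (96 hours, 6 days, 10 days, 48 hours) and then 0 hours. The ranges of neighbouring groups in this order overlapped, except between SF at 48 hours and 0 hours. The rise in ISF from 48 to 96 hours, 0.71 ± 0.31, did not pass the test (adjusted p = 0.105). It passed in 3 of 17 alternatives, with horse as a block for pairing (0.76, adjusted p = 0.0385), without Moon (0.87, adjusted p = 0.0335) and with library weights (0.75, adjusted p = 0.0348). The block used the horse labels as given, with those of Dealings and Dreamer in ISF at 96 hours in doubt. Without the 96 hour ISF libraries from Dealings and Dreamer it was 0.54 (adjusted p = 0.322).

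HMOX2 (ENSECAG00000017319), the constitutive heme oxygenase, rose by smaller steps and with little spread between horses. At 0 hours it ranged from 51.4 to 67.9 GeTMM (median 54.7). The ISF medians were 92.6 (48 hours), 125 (96 hours), 139 (6 days) and 155 (10 days), and the SF medians in the same order were 82.2, 107, 106 and 121. No cultured library overlapped the uncultured ones. HMOX2 was the one member called in ISF from 48 to 96 hours (log2 change 0.39 ± 0.08, adjusted p = 1.74e-04), where the 2 groups did not overlap. Without the ISF libraries from Dealings and Dreamer it was 0.38 ± 0.09 (adjusted p = 0.00144). In SF the corresponding change was 0.26 ± 0.08 (adjusted p = 0.00959), and it was not called without Ollie (0.22, adjusted p = 0.0676). The net change was 1.42 ± 0.08 in ISF (adjusted p = 1.32e-24) and 1.08 ± 0.08 in SF (adjusted p = 7.06e-19). Levels per gene length gave a median HMOX1 to HMOX2 ratio of 3.00 at 0 hours, with horses between 2.60 and 3.59. In ISF at 96 hours this ratio was between 4.61 and 24.9, with a median of 11.5, and in SF between 3.42 and 12.3, with a median of 5.78.

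BLVRA and BLVRB, the biliverdin reductases, took different courses. BLVRA (ENSECAG00000011650) was low at 0 hours, from 7.69 to 10.2 GeTMM, and no cultured library was below 32.0. Its log2 change from 0 to 48 hours was 2.87 ± 0.18 in ISF (adjusted p = 2.58e-21) and 2.64 ± 0.18 in SF (adjusted p = 1.28e-19). That was the largest change among the 10 genes over this interval in each fluid. BLVRA then declined in ISF from 6 to 10 days, from a median of 65.9 to 45.8, with overlapping ranges (-0.56 ± 0.18, adjusted p = 0.0327). That decline was not called without Catnip, Dealings, Flash, Ollie or RimRun (adjusted p = 0.0548 to 0.149).

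BLVRB (ENSECAG00000000697), which also reduces flavins and is abundant in red cells, varied widely at 0 hours, from 82.7 to 421 GeTMM with a median of 154. It rose from 0 to 48 hours, by 0.75 ± 0.27 in ISF (adjusted p = 0.0151) and 1.06 ± 0.27 in SF (adjusted p = 7.34e-04). Without Dreamer or Flash the rise in ISF was 0.58 and was not called (adjusted p = 0.0893 and 0.0699). Its highest medians were 391 in ISF and 527 in SF, both at 96 hours. By 10 days the medians were 219 and 251, and the net change was called in neither fluid (0.18 ± 0.27 in ISF, adjusted p = 0.542, and 0.40 ± 0.27 in SF, adjusted p = 0.175). The net change in SF was called without Catnip (0.63, adjusted p = 0.0484) or Moon (0.56, adjusted p = 0.0330). In SF the 48 to 96 hour change of 0.59 ± 0.27 was not called (adjusted p = 0.0908), but was without Moon (0.62, adjusted p = 0.0320), without Flash (0.72, adjusted p = 0.0406) and without Moon's 6 day SF library (0.59, adjusted p = 0.0380). It was the one member called in SF from 6 to 10 days (-1.02 ± 0.27, adjusted p = 0.0169), and no SF library at 10 days reached the lowest value at 6 days. This decline was not called without Moon's 6 day SF library (-0.75, adjusted p = 0.0810), without Moon (adjusted p = 0.0776) or without Lurie (adjusted p = 0.0622). The BLVRB to BLVRA ratio had a median of 16.4 at 0 hours and of 3.78 to 7.82 in the cultured groups.

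FTH1 and FTL, the heavy and light chains of ferritin, were the most abundant of the 10 and rose together. FTH1 (ENSECAG00000008683) ranged from 2483 to 4813 GeTMM at 0 hours (median 2978), and its medians in culture were 17983 to 24008 in SF and 21638 to 25160 in ISF. FTL (ENSECAG00000029371) ranged from 4663 to 6622 at 0 hours (median 5263), and its medians were 16741 to 24628 in SF and 22143 to 25552 in ISF. Neither gene had a cultured library within its uncultured range. From 0 to 48 hours FTH1 rose by 2.85 ± 0.24 in ISF (adjusted p = 4.84e-16) and 2.59 ± 0.24 in SF (adjusted p = 2.74e-14). FTL rose by 2.25 ± 0.22 in ISF (adjusted p = 2.56e-13) and 2.31 ± 0.22 in SF (adjusted p = 1.27e-13). No later step was called for either chain in either fluid. The FTH1 to FTL ratio had a median of 0.612 at 0 hours. After 48 hours it was 0.915 in ISF against 0.695 in SF, and after 10 days 1.13 against 1.08. Together the chains took 0.235% to 0.379% of reads at 0 hours and 0.837% to 4.02% in culture, the highest share being in Moon's 6 day SF library. Levels of the chains relative to each other rest on the gene lengths behind the GeTMM values, which were 309 bases for FTH1 and 528 for FTL, and reads from near-identical ferritin copies may have been split or dropped in counting.

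NCOA4 (ENSECAG00000006210), the receptor that takes ferritin to the lysosome so that its iron can be released, did not follow the ferritin chains. From 55.5 to 113 GeTMM at 0 hours (median 75.1) it fell in ISF to between 47.1 and 68.7 at 48 hours (-0.52 ± 0.16, adjusted p = 0.00442), with overlapping ranges. The fall in SF was not called (-0.28 ± 0.16, adjusted p = 0.137), but was without Flash (-0.39, adjusted p = 0.0356). In SF it then rose from a median of 62.2 to 94.6 between 48 and 96 hours (0.66 ± 0.16, adjusted p = 9.11e-04). At 10 days its level was 85.6 to 185 in SF and 67.7 to 88.4 in ISF. The net change was 0.47 ± 0.16 in SF (adjusted p = 0.00730), which was not called without Dealings (0.34, adjusted p = 0.0579) or Dreamer (0.38, adjusted p = 0.0551), and -0.07 ± 0.16 in ISF (adjusted p = 0.70).

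TFRC (ENSECAG00000024267), the transferrin receptor, was higher at 10 days than at 0 hours in both fluids. At 0 hours its lowest, median and highest GeTMM values were 24.05, 69.1 and 196. In ISF they were 137, 177 and 235 (48 hours), 67.1, 172 and 469 (96 hours), 44.6, 221 and 444 (6 days), and 137, 255 and 322 (10 days). In SF they were 66.9, 99.3 and 140 (48 hours), 116, 210 and 328 (96 hours), 4.24, 298 and 559 (6 days), and 177, 278 and 393 (10 days). All of these groups overlapped the uncultured range. The 0 to 48 hour change was called in ISF (1.40 ± 0.50, adjusted p = 0.0152) and not in SF (0.44 ± 0.50, adjusted p = 0.498). Without Dreamer the change in ISF was not called (1.23, adjusted p = 0.0610). The net change was 1.74 ± 0.50 in ISF (adjusted p = 0.00159) and 1.97 ± 0.50 in SF (adjusted p = 4.32e-04). From 48 to 96 hours the change in SF was 1.14 ± 0.50 (adjusted p = 0.0820), and it was called without Moon's 6 day SF library (1.14 ± 0.35, adjusted p = 0.00754), which alone gave the level of 4.24, and without Moon (1.15, adjusted p = 0.00965).

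SLC40A1 (ENSECAG00000021609), ferroportin, the exporter of cellular iron, was the one member lower at 10 days than at 0 hours in both fluids. Its lowest, median and highest GeTMM values were 100.0, 159 and 178 at 0 hours. In ISF they fell to 18.3, 36.8 and 67.3 (48 hours), 10.7, 17.7 and 35.2 (96 hours), 1.47, 6.97 and 23.8 (6 days), and 3.38, 11.6 and 17.3 (10 days). In SF they were 42.7, 58.2 and 131 (48 hours), 37.7, 65.9 and 239 (96 hours), 0.958, 72.1 and 169 (6 days), and 23.7, 51.4 and 127 (10 days). No ISF library reached the uncultured range, whereas every SF group overlapped it. The log2 change from 0 to 48 hours was -2.06 ± 0.49 in ISF (adjusted p = 3.21e-04) and -0.98 ± 0.49 in SF (adjusted p = 0.10). The latter was called without Moon's 6 day SF library (-0.98, adjusted p = 0.0253) and without Moon (-0.96, adjusted p = 0.0271). From 0 hours to 10 days the change was -3.98 ± 0.49 in ISF (adjusted p = 1.21e-10) and -1.42 ± 0.49 in SF (adjusted p = 0.00912). Later steps in ISF were not called: -0.87 ± 0.49 from 48 to 96 hours (adjusted p = 0.232) and -1.12 ± 0.48 from 96 hours to 6 days (adjusted p = 0.160). Without Moon these were -0.97 (adjusted p = 0.0473) and -1.23 (adjusted p = 0.0245), and without Moon's 6 day SF library the second was -1.12 (adjusted p = 0.0343). Without the ISF libraries from Dealings and Dreamer the first was -0.66 ± 0.53 (adjusted p = 0.484). The ranges of groups next to each other in the order of medians all overlapped.

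The TFRC to SLC40A1 ratio, of iron uptake receptor to exporter, put both genes on 1 scale per gene length. Its median was 0.458 at 0 hours, with horses between 0.240 and 1.17. In ISF the median was 5.18 (48 hours), 12.4 (96 hours), 15.8 (6 days) and 26.6 (10 days), and in SF, in the same order, it was 1.28, 3.70, 3.71 and 4.24. No ISF group overlapped the range at 0 hours, its lowest ratio being 2.03 at 48 hours. The SF ranges at 6 days (1.84 to 18.2) and 10 days (2.19 to 16.6) did not overlap it either, while those at 48 and 96 hours did.

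SLC11A1 (ENSECAG00000015807), the metal transporter NRAMP1 of phagosome membranes, rose in ISF, while its SF medians were below the uncultured one. At 0 hours it ranged from 158 to 178 GeTMM (median 173). In ISF its lowest, median and highest values were 147, 173 and 281 (48 hours), 220, 318 and 511 (96 hours), 340, 431 and 749 (6 days), and 226, 331 and 492.7 (10 days). In SF they were 85.0, 153 and 207 (48 hours), 64.0, 98.3 and 205 (96 hours), 24.7, 74.0 and 308 (6 days), and 28.8, 137 and 295 (10 days). From 96 hours on, every ISF library was above every uncultured one, while the SF groups overlapped the uncultured range. The net change was 1.01 ± 0.32 in ISF (adjusted p = 0.00424) and -0.49 ± 0.32 in SF (adjusted p = 0.175). Without Moon the net change in SF was called (-0.70, adjusted p = 0.0441). The rise in ISF from 48 to 96 hours was 0.85 ± 0.32 (adjusted p = 0.0560), and it was called with horse as a block for pairing (0.79, adjusted p = 0.0467), without Flash (0.92, adjusted p = 0.0450), without Moon (0.90, adjusted p = 0.0223) and without Moon's 6 day SF library (0.85, adjusted p = 0.0270). Without the ISF libraries from Dealings and Dreamer it was 0.75 ± 0.35 (adjusted p = 0.161). With the block, under the horse labels as given, HMOX1, SLC11A1 and HMOX2 made 3 members called over this interval instead of 1.

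Direct comparison of the fluids separated HMOX1, HMOX2 and SLC11A1, which were higher in ISF, from SLC40A1 and NCOA4, which were higher in SF. At 48 hours limma called none of the 10, beside 1.68% of all genes, with 2 at an unadjusted p under 0.05 and 0 called by limma voom. At 96 hours it called 5 (3 higher, 2 lower in ISF), beside 10.5% of all genes, at 6 days 6 (3 higher, 3 lower), beside 30.2%, and at 10 days 5 (3 higher, 2 lower), beside 20.8%. HMOX1, HMOX2, SLC11A1, SLC40A1 and NCOA4 were called at all 3 times, and BLVRB at 6 days. At 48 hours, the differences nearest to the threshold were those of HMOX1 (0.66 ± 0.32, adjusted p = 0.347) and SLC40A1 (-1.09 ± 0.51, adjusted p = 0.310). The 2 ISF libraries at 96 hours with doubtful labels and Moon's 6 day SF library enter these comparisons. In the 6 horses other than Dealings and Dreamer, HMOX1 and SLC11A1 were higher in ISF at 96 hours in 6 of 6, and HMOX2 in 5 of 6. SLC40A1 and NCOA4 were lower in 6 of 6, as was BLVRB, which limma did not call at that time (adjusted p = 0.219).

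**Figure D2:**
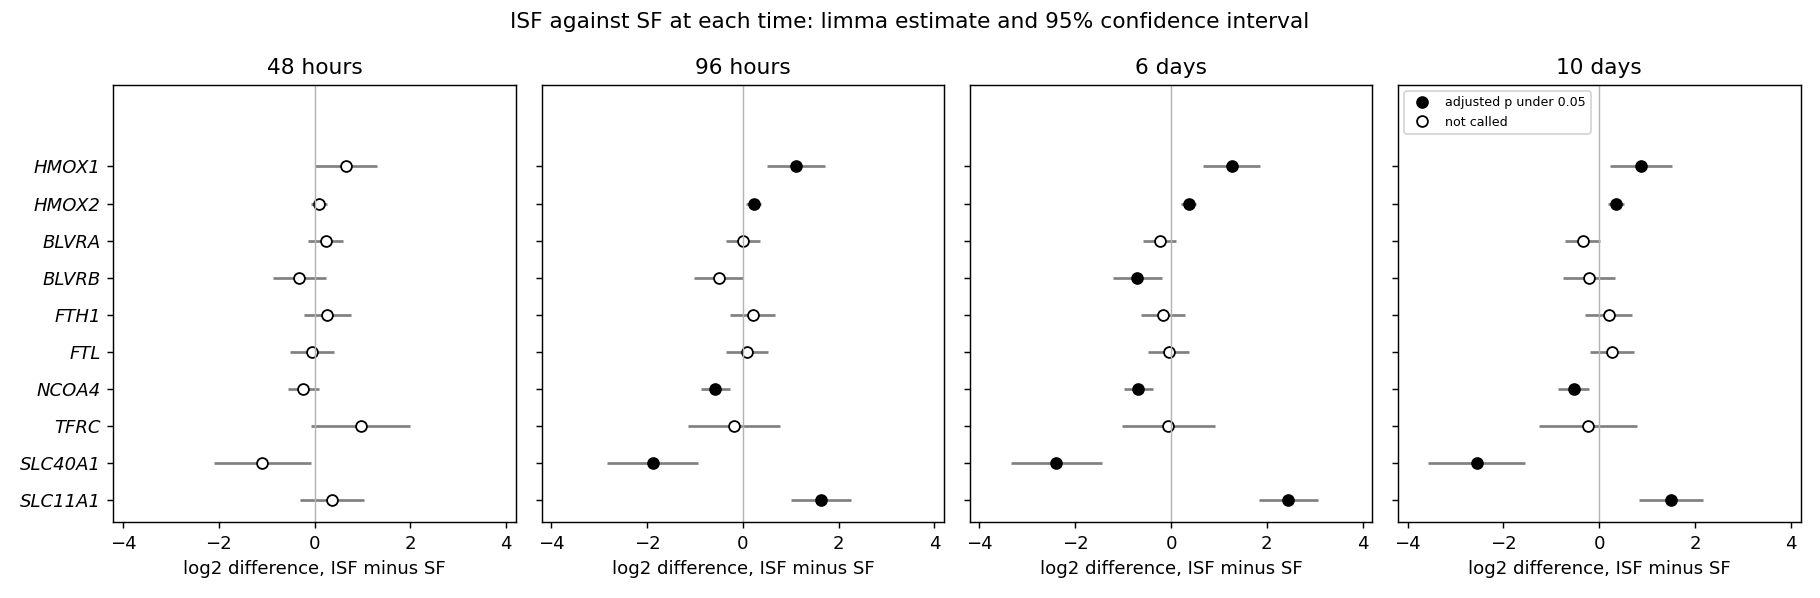
Difference between ISF and SF in log2(GeTMM + 1) for each of the 10 genes at each time, with 95% confidence intervals from limma; filled circles have an adjusted p under 0.05. No circle is filled at 48 hours, and HMOX1, HMOX2 and SLC11A1 (right) and NCOA4 and SLC40A1 (left) are filled at 96 hours, 6 days and 10 days.

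SLC11A1 showed the largest difference in favour of ISF. The log2 difference was 1.62 ± 0.31 at 96 hours (adjusted p = 1.96e-04), 2.45 ± 0.31 at 6 days (adjusted p = 9.53e-09) and 1.5 ± 0.33 at 10 days (adjusted p = 6.23e-04). ISF and SF libraries did not overlap at 96 hours or 6 days. Within horses it was higher in ISF in 8 of 8 at 96 hours, 8 of 8 at 6 days and 7 of 7 at 10 days, and the ratio at 6 days ran from 1.21 in Moon to 17.9 in Flash. Without Moon's 6 day SF library the difference at that time was 2.72 ± 0.30 (adjusted p = 1.66e-10), and without the ISF libraries from Dealings and Dreamer the difference at 96 hours was 1.53 ± 0.34 (adjusted p = 0.00212).

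HMOX1 was higher in ISF than in SF by 1.12 ± 0.30 at 96 hours (adjusted p = 0.00947), 1.26 ± 0.30 at 6 days (adjusted p = 8.89e-04) and 0.87 ± 0.32 at 10 days (adjusted p = 0.0458). The fluids overlapped at every time, but within horses HMOX1 was higher in ISF in 7 of 7 at 48 hours, 8 of 8 at 96 hours, 6 of 8 at 6 days and 6 of 7 at 10 days. At 6 days the within-horse ratio ran from 0.836 in Moon to 8.35 in Flash, and without Moon's SF library the difference was 1.35 ± 0.31 (adjusted p = 4.71e-04). Without the 96 hour ISF libraries from Dealings and Dreamer the difference at that time was 0.95 ± 0.33 and was not called (adjusted p = 0.0654), nor was it without Dealings (1.03, adjusted p = 0.0541) or Dreamer (0.94, adjusted p = 0.0534). The difference at 10 days was not called without Catnip, Dealings, Dreamer, Lurie or RimRun, with estimates of 0.59 to 0.93 and adjusted p of 0.0709 to 0.238, nor with no filter (adjusted p = 0.0676), with upper quartile scaling (0.0675) or in a fit to the groups compared alone (0.0704). HMOX2 differed less, by 0.22 ± 0.08 at 96 hours (adjusted p = 0.0470), 0.37 ± 0.08 at 6 days (adjusted p = 1.58e-04) and 0.35 ± 0.08 at 10 days (adjusted p = 0.00116). Its difference at 96 hours was not called without any one of the 7 horses other than Flash (adjusted p = 0.0593 to 0.172), nor without the ISF libraries from Dealings and Dreamer (0.21, adjusted p = 0.129), with upper quartile scaling (0.14, adjusted p = 0.238) or with no filter (adjusted p = 0.0538).

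SLC40A1 was the member with the largest negative difference at all 3 of these times. The log2 difference was -1.88 ± 0.48 at 96 hours (adjusted p = 0.00505), -2.40 ± 0.48 at 6 days (adjusted p = 7.33e-05) and -2.56 ± 0.51 at 10 days (adjusted p = 1.34e-04). The fluids did not overlap at 96 hours or 10 days. It was lower in ISF in 7 of 7 horses at 48 hours, 8 of 8 at 96 hours, 7 of 8 at 6 days and 7 of 7 at 10 days. The exception was Moon at 6 days, whose ISF level was 24.8 times its SF level of 0.958. Without that SF library the difference at 6 days was -3.06 ± 0.38 (adjusted p = 3.82e-09), and the other SF libraries ranged from 30.7 to 169 with a median of 82.5. Without the 2 ISF libraries at 96 hours the difference at that time was -1.67 ± 0.52 (adjusted p = 0.0379).

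NCOA4 was lower in ISF than in SF by 0.57 ± 0.15 on the log2 scale at 96 hours (-0.57, adjusted p = 0.00839), by 0.69 ± 0.15 at 6 days (-0.69, adjusted p = 3.39e-04) and by 0.54 ± 0.16 at 10 days (-0.54, adjusted p = 0.0127). The fluids overlapped at each time. It was lower in ISF in 8 of 8 horses at 96 hours, 7 of 8 at 6 days and 7 of 7 at 10 days. The difference at 10 days was not called without Dealings (-0.40, adjusted p = 0.114). Without Moon's SF library the difference at 6 days was -0.83 ± 0.14 (adjusted p = 6.01e-06), and without the 2 ISF libraries that at 96 hours was -0.58 ± 0.17 (adjusted p = 0.0226). BLVRB was lower in ISF at 6 days (-0.71 ± 0.26, adjusted p = 0.0305), in 6 of 8 horses. That difference was -0.43 ± 0.23 without Moon's SF library, where BLVRB was 1786 against 285 to 441 in the other SF libraries (adjusted p = 0.140). It was also not called without Moon (-0.43, adjusted p = 0.145), Lurie (-0.69, adjusted p = 0.0637), Ollie (-0.61, adjusted p = 0.101) or RimRun (-0.72, adjusted p = 0.0602), nor with no filter (adjusted p = 0.0503), library weights (0.0586) or the groups compared alone (0.135).

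The ferritin chains, BLVRA and TFRC were not called between the fluids at any time. The 95% confidence intervals of the log2 difference at 6 days were -0.63 to 0.29 for FTH1, -0.48 to 0.38 for FTL, -0.59 to 0.11 for BLVRA and -1.02 to 0.91 for TFRC. Without Moon's SF library the differences at that time were 0.09 ± 0.20 for FTH1 (adjusted p = 0.757), 0.23 ± 0.17 for FTL (adjusted p = 0.308) and -0.03 ± 0.15 for BLVRA (adjusted p = 0.898), where with it they were -0.17, -0.05 and -0.24. Without the 2 ISF libraries the differences at 96 hours were 0.14 for FTH1, 0.05 for FTL, -0.02 for BLVRA and -0.13 for TFRC, with adjusted p of 0.832 to 0.980. BLVRA at 10 days was called without Moon (-0.45, adjusted p = 0.0401). TFRC was higher in ISF in 7 of 7 horses at 48 hours (0.96 ± 0.52, adjusted p = 0.402), with ratios of 1.51 to 2.33, and higher in 3 of 8 horses at 6 days. Without Moon its difference at 6 days was called, in the opposite direction to that at 48 hours (-0.93, adjusted p = 0.0368), and without Moon's SF library alone it was -0.79 ± 0.35 (adjusted p = 0.0686).

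**Figure D3:**
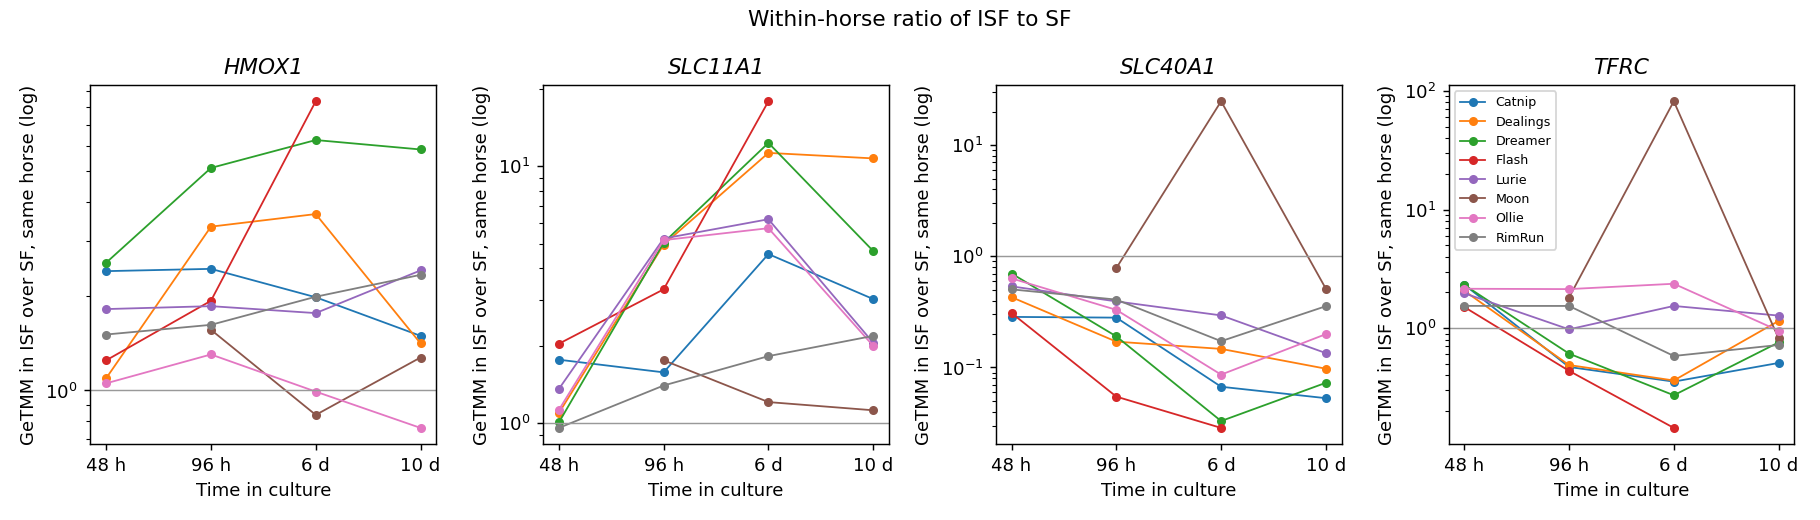
GeTMM in ISF divided by GeTMM in SF of the same horse and time (log axis) for HMOX1, SLC11A1, SLC40A1 and TFRC, with 1 line per horse; the grey line marks equal levels. SLC11A1 lies above the line in all horses from 96 hours and SLC40A1 below it in all horses except Moon at 6 days, where Moon's SF library also gives the TFRC ratio of 81.9.

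Whether the gap between the fluids itself changed with time was tested as a difference of differences. From 48 hours to 6 days it was called for 1 member, SLC11A1 (2.09 ± 0.46, adjusted p = 0.00279), beside 5.38% of all genes. From 48 hours to 10 days it was called for none, beside 2.99% of all genes, with 4 at an unadjusted limma p under 0.05 and 0 called by limma voom. Without Moon's 6 day SF library the change from 48 hours to 6 days was also called for SLC40A1 (-1.97 ± 0.54, adjusted p = 0.0168) and TFRC (-1.75 ± 0.50, adjusted p = 0.0226), which with it were -1.31 ± 0.70 (adjusted p = 0.295) and -1.02 ± 0.71 (adjusted p = 0.457). Without the horse Moon they were -2.18 (adjusted p = 0.00509) and -1.89 (adjusted p = 0.0122), and the change to 10 days was called for SLC11A1 (1.37, adjusted p = 0.0473) and SLC40A1 (-1.74, adjusted p = 0.0370).

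Markers of other cells also differed between the fluids at 6 and 10 days, as some of these genes did. At 96 hours, where 5 members were called, 3 of 6 macrophage markers were called too, 2 higher and 1 lower in ISF. No neutrophil precursor, T cell, B cell, stromal or erythroid marker was called at that time. The median log2 differences of these lists were, in the same order, -0.9419, -0.9457, -0.9986, -0.3247 and -0.031. At 6 days the summed GeTMM of 6 neutrophil precursor markers ranged from 2.76 to 2393 in ISF (median 192) and from 89.4 to 4799 in SF (median 1613), and that of 5 T cell markers from 8.57 to 47.3 in ISF and 28.6 to 228 in SF. The 6 macrophage markers summed to a median of 57498 in ISF and 36725 in SF, with overlapping ranges. SPP1 had the largest median of the 6, 44320 in ISF and 14970 in SF, with overlapping ranges (4059 to 87680 and 3436 to 84080). GPNMB had a median of 6156 in ISF and 13370 in SF. MSR1 ranged from 548 to 1725 in ISF (median 1254) and from 145 to 501 in SF (median 212), without overlap. Of the 6, the test called 1 higher and 1 lower in ISF. The 7 erythroid markers summed to 0.665 to 1.87 in ISF and 1.05 to 12.0 in SF, the highest being Moon. At 10 days 5 fibroblast or stromal markers summed to 0.123 to 49.2 in ISF and 0.406 to 4038 in SF. By the test, 5 of 6 neutrophil precursor markers were lower in ISF at 6 days and 3 of 6 at 10 days. All 5 T cell and all 3 B cell markers were lower in ISF at both times, as were the 5 fibroblast or stromal markers at 10 days. Of 4 cell cycle genes, 2 were higher in ISF at 96 hours and 3 at 6 days. The part of these cells, and of cell division, in the differences was not tested.

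At 0 hours 3 of the 10 genes varied between horses with the erythroid markers, a pattern described after the values were seen and not tested. The erythroid sum was highest in Catnip (1857) and Moon (1612), intermediate in Dealings (846), Ollie (567), RimRun (507), Lurie (399) and Flash (345), and lowest in Dreamer (96.4). TFRC was 196 in Catnip, 103 in Moon, 85.6 in RimRun, 74.9 in Dealings, 63.3 in Ollie, 61.0 in Lurie, 45.4 in Flash and 24.05 in Dreamer. The highest and lowest horses were thus the same for both. BLVRB was 421 in Moon and 375 in Catnip, between 118 and 188 in 5 horses and 82.7 in Dreamer. NCOA4 was 113 in Catnip, 101 in Moon, between 63.8 and 86.9 in 5 horses and 55.5 in Dreamer. The remaining members did not put the horses in this order. HMOX1 was 195 in Catnip and 176 in Dreamer, SLC11A1 stayed between 158 and 178, and FTH1 was highest in Flash (4813) and lowest in RimRun (2483). SLC40A1 was lowest in Dreamer (100.0) and Flash (116) and highest in Ollie (178).

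**Figure D4:**
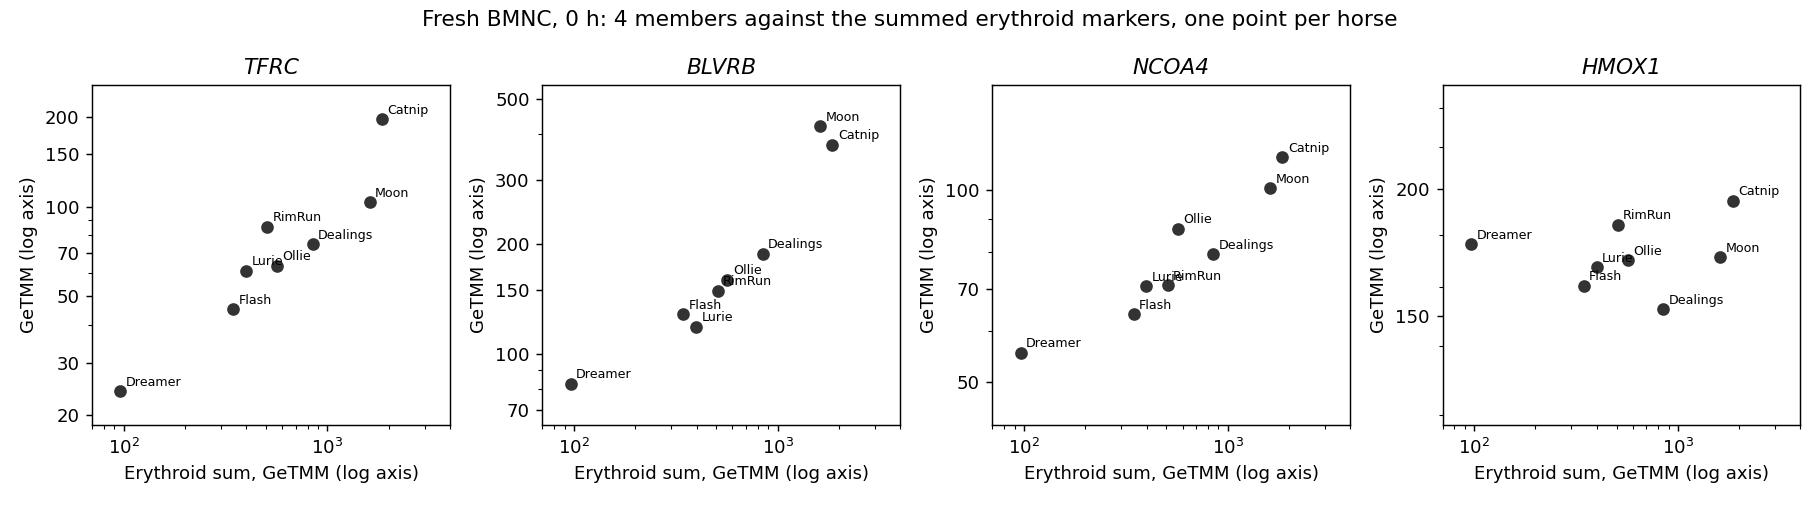
GeTMM of TFRC, BLVRB, NCOA4 and HMOX1 in uncultured BMNC against the summed GeTMM of 7 erythroid markers (both axes log), with 1 point per horse, 8 horses. TFRC, BLVRB and NCOA4 are lowest in Dreamer, the horse with the lowest erythroid sum, and highest in Catnip or Moon, whereas HMOX1 stays between 152 and 195.

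Genes with the most similar profile over the 68 libraries were listed for 5 members by Pearson correlation of log2(GeTMM + 1), as a description in which the libraries share horses and times. For HMOX1 they were RAMP2 (r = 0.862), LSM4 (r = 0.856) and SLC48A1 (r = 0.853), the last a lysosomal heme transporter. For FTH1 they included FTL (r = 0.954) and P2RX4 (r = 0.939). For SLC40A1 they were MCTP1 (r = 0.884), SPTBN1 (r = 0.863) and LRBA (r = 0.856). For TFRC they were DLG1 (r = 0.890), OTUD6B (r = 0.827) and RAB33B (r = 0.827), and for BLVRB they were PIR (r = 0.865), NUDT1 (r = 0.771) and RENBP (r = 0.761).

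Of 32 further heme and iron genes, 28 were in the table and 24 were tested. From 0 hours to 10 days 20 of the 24 were called in ISF and 20 in SF, with 12 higher and 8 lower in each, beside the same 74.5% and 69.6% of all genes. Their median log2 change was 0.40 in ISF and 0.30 in SF. The 3 largest rises in ISF were those of the metal importer SLC39A14 (4.14 ± 0.29, adjusted p = 3.11e-20), the iron transporter SLC11A2 (3.29 ± 0.20, adjusted p = 3.10e-23) and LRP1 (3.29 ± 0.24, adjusted p = 1.65e-19), a receptor for heme bound to hemopexin. SLC39A14 went from a median of 1.93 GeTMM at 0 hours to 45.8 at 10 days in ISF, against 17.3 in SF. The 3 largest falls were those of LCN2 (-8.24 ± 0.77, adjusted p = 5.99e-15), the mitochondrial iron importer SLC25A37 (-3.43 ± 0.30, adjusted p = 5.93e-16) and FBXL5 (-2.74 ± 0.16, adjusted p = 5.93e-24), which marks an iron regulatory protein for degradation. LCN2 is a granule protein of maturing neutrophils that binds iron carriers of bacteria, and SLC25A37 is abundant in erythroid precursors. The neutrophil precursor markers summed to 11356 to 20997 at 0 hours and to 0.759 to 63.7 in ISF at 10 days, and their part in the fall of LCN2 was not tested.

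**Figure D5:**
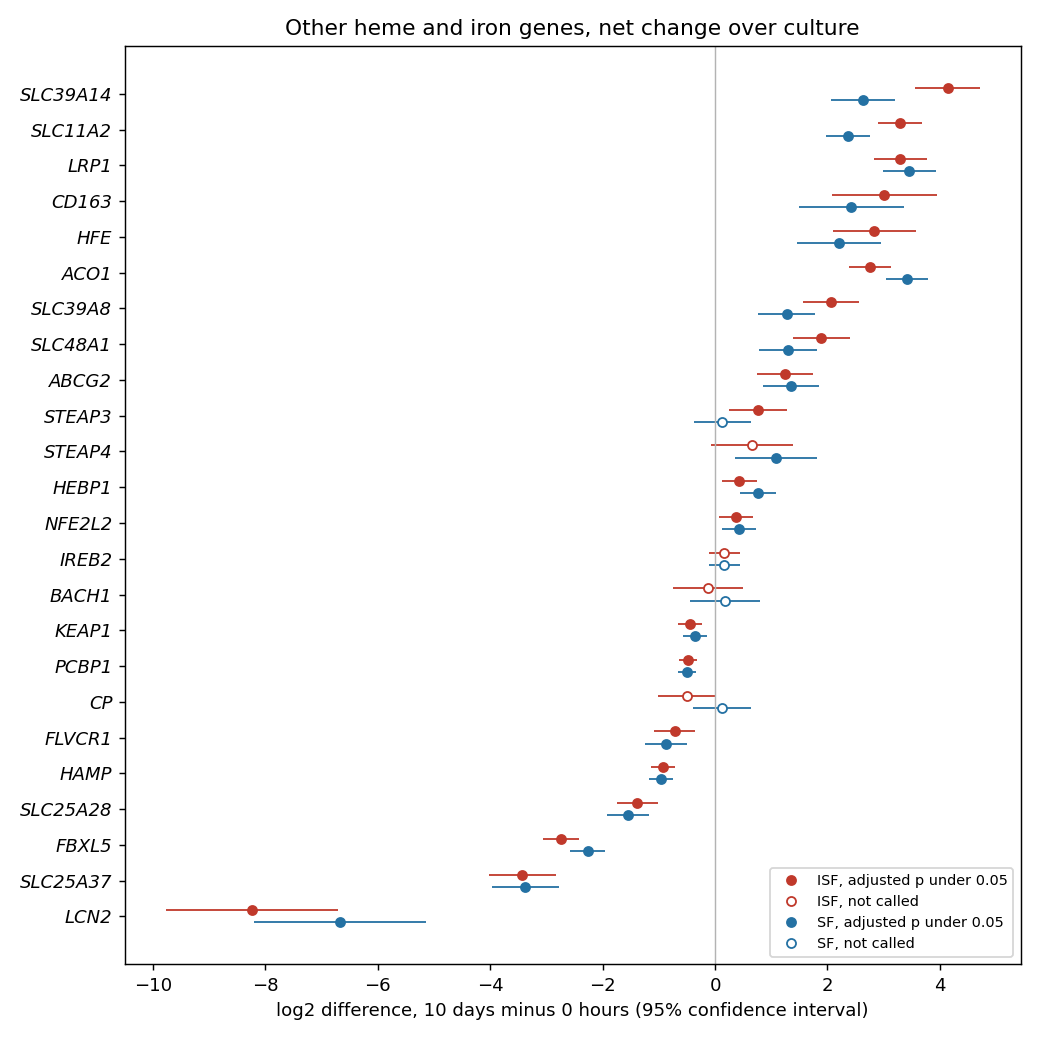
Log2 change from 0 hours to 10 days in ISF (red) and SF (blue) for 24 further heme and iron genes, ordered by the change in ISF, with 95% confidence intervals; filled circles have an adjusted p under 0.05. SLC39A14, SLC11A2 and LRP1 have the largest rises in ISF and LCN2, SLC25A37 and FBXL5 the largest falls.

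Between the fluids, 0, 5, 8 and 5 of these 24 genes were called at 48 hours, 96 hours, 6 days and 10 days, beside 1.68%, 10.5%, 30.2% and 20.8% of all genes. With horse as a block for pairing these counts were 4, 6, 12 and 7. At 6 days 7 were higher in ISF, with the largest differences for SLC39A14 (2.00 ± 0.28, adjusted p = 7.03e-08), SLC11A2 (1.51 ± 0.19, adjusted p = 5.52e-09) and SLC48A1 (1.01 ± 0.25, adjusted p = 0.00121). SLC11A2, unlike its relative SLC11A1, rose in both fluids, its median going from 6.05 GeTMM at 0 hours to 71.5 at 10 days in ISF, against 34.7 in SF. ACO1, whose protein acts as an iron regulatory protein when iron is scarce, was the single gene called lower in ISF at 6 days (-0.96 ± 0.18, adjusted p = 2.98e-05), with a median of 111 GeTMM against 207 in SF. The smallest differences called were those of LRP1 (0.60 ± 0.23, adjusted p = 0.0372) and ABCG2, a heme and drug exporter (0.65 ± 0.24, adjusted p = 0.0365). Without Moon's SF library neither was called (0.48, adjusted p = 0.0951, and 0.57, adjusted p = 0.0687). Leaving out single horses ended the call of LRP1 for Dealings, Dreamer, Flash, Lurie, Ollie or RimRun (adjusted p = 0.0509 to 0.106) and that of ABCG2 for Catnip, Dealings, Dreamer, Flash, Lurie or Moon (adjusted p = 0.0516 to 0.0870). At 48 hours, where limma called 0 of the 24, 8 had an unadjusted p under 0.05, and limma voom called 0. Library weights gave 8 calls, the block 4 and only the groups compared 2. Leaving out Moon gave 3, Moon's 6 day SF library 3 and Dealings 1, and the remaining alternatives gave 0.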

How the data were processed

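RNA from uncultured BMNC and from BMNC cultured in SF or ISF was sequenced as stranded paired-end libraries. Reads were trimmed with TrimGalore and aligned to EquCab3.0 with STAR 2.7.2a, which also counted reads per Ensembl gene, and the submitters' processing notes name edgeR for normalisation. Which strand was counted is not given in the sources used here. The deposited values are GeTMM, a length-corrected unit of the RPKM kind that the authors scaled between libraries by TMM factors. They were not counts, so log2(GeTMM + 1) was tested with limma (trend), 2-sided, over all 68 libraries and 9 groups. Genes entered the fit if 7 or more libraries reached 0.5 GeTMM, and p was adjusted by Benjamini-Hochberg over all 14570 genes and called under 0.05. Fold changes on this scale understate those of low genes.

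Whole reads were recovered from the steps in the values for 24038 of 24065 genes (99.9%, tolerance 0.02 read) and used for depth, 15.7 to 36.0 M reads per library, and for a voom fit. Symbols were missing for 13157 entries. Each cultured library came from 1 well of 1 horse, and each 0 hour library from uncultured cells of 1 horse. Libraries of the same horse pair the groups by design, and their residuals had a median correlation of 0.263 over 258 pairs, against -0.04 over 1796 pairs of different horses. Alternatives were a pseudocount of 0.1, no filter, upper quartile scaling, horse as a replicate block, only the groups compared, library weights, voom, and leaving out each horse, Moon's 6 day SF library or the 96 hour ISF libraries from Dealings and Dreamer. The fit was tested on simulated counts drawn without differences between horses, which cannot show how it treats paired libraries.

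The members and lists were chosen with earlier results of these data known. All members are described. Of the further heme and iron genes, the 3 highest and 3 lowest log2 changes among those called were named for the net change in ISF and for ISF against SF at 6 days, and for 5 members the 3 genes with the most similar profile. A gene that the last rule names is not reported here. Coordinates and sequences are not reported here. R 4.3.3, limma 3.58.1, Python 3.11.15, numpy 2.4.6, pandas 2.3.3 and matplotlib 3.10.9 were used.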

Additional observations from a re-analysis of the deposited data

Results flagged for a closer look

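In 13 of 90 sets of libraries (10 genes in 9 groups) the highest or lowest library was separated from the nearest other by more than Dixon's limit, which chance alone exceeds in about 1 in 20 sets. The SF library of Moon at 6 days accounted for 6 of them. In it GeTMM was 206.57 for BLVRA, 1785.91 for BLVRB, 95792.92 for FTH1 and 98958.57 for FTL, each the highest of its group, and 0.96 for SLC40A1 and 4.24 for TFRC, each the lowest.

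The others were spread over genes and horses. BLVRA was lowest in Lurie at 0 hours (7.69) and in ISF at 96 hours (47.68), and SLC11A1 was lowest in Dealings at 0 hours (158.24). SLC40A1 was highest in Flash in SF at 96 hours (239.26). NCOA4 was highest in RimRun in ISF at 48 hours (68.73), in Flash in SF at 48 hours (85.46) and in Dealings in SF at 10 days (185.07).

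The difference between ISF and SF in SLC11A1 changed by 2.09 on the log2 scale from 48 hours to 6 days (limma, adjusted p = 0.00279), and the adjusted p ranged from 1.50e-05 to 0.0402 over the 17 alternatives.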

How the results depend on the processing

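Of 2720 values recomputed for the 10 genes, 2619 kept their side of the threshold, 55 passed it newly and 46 no longer passed it. Some values that did not pass changed sign, and 0 passed in the direction opposite to the reported value. The pseudocount of 0.1 and voom changed none of 160 calls. Horse as a replicate block (pairing) changed 2, both in ISF from 48 to 96 hours (3 members called), and no other member call. The block used the horse labels as given, among them the doubtful labels of Dealings and Dreamer in ISF at 96 hours. Members called where a setting moved a count by over 1.5 times were as follows, and the cause was not tested. With upper quartile scaling 2 were called in ISF and 4 in SF from 48 to 96 hours. With only the groups compared, 1 was called between the fluids at 48 hours, 4 in ISF from 48 to 96 hours, 0 in SF from 6 to 10 days and 1 for the change in the gap from 48 hours to 10 days. With library weights, under which 2233 of all genes in place of 245 were called between the fluids at 48 hours, these were 2, 5, 0 and 1, with 1 in ISF from 96 hours to 6 days, 4 in SF from 48 to 96 hours and 4 for the change in the gap to 6 days. Without Moon's 6 day SF library 2 were called in ISF from 48 to 96 hours, 1 in ISF from 96 hours to 6 days, 4 in SF from 48 to 96 hours, 0 in SF from 6 to 10 days and 3 for the gap to 6 days. Without the ISF libraries from Dealings and Dreamer 3 were called between the fluids at 96 hours.

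Leaving out single horses gave 0 to 0, 3 to 5, 5 to 6 and 3 to 6 members called between the fluids at 48 hours, 96 hours, 6 days and 10 days. It gave 7 to 9, 1 to 4, 0 to 1 and 0 to 1 over the 4 successive intervals in ISF and 8 to 8 from 0 hours to 10 days, and 6 to 7, 1 to 4, 0 to 0, 0 to 1 and 7 to 10 in SF. For the change in the gap it gave 1 to 3 to 6 days and 0 to 2 to 10 days. Among the further heme and iron genes 2351 of 2448 values kept their call, and 1 was reversed: CP, ceruloplasmin, in SF from 0 hours to 10 days was 0.12 with all horses, -0.44 without Lurie (adjusted p = 3.21e-05) and between -0.44 and 0.24 over single horses left out. Over all genes tested, upper quartile scaling moved the share of calls that were higher by up to 23.2 percentage points, from 65.7% to 42.5% for the change in the gap to 6 days.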
